A study of Mus musculus with 24 samples.

Results

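Skeletal muscle of Rap1 knockin (KI) female mice was compared with skeletal muscle of wild-type (WT) females on 1-colour Agilent mouse arrays. The comparison takes the 6 muscle arrays of a series of 24, of which the other arrays hold liver, brain and heart of the same 6 mice. The members were chosen by the tissue and genotype in the labels, 3 arrays of Rap1 MUT muscle (KI mice M1600, M1609 and M1647) and 3 of WT muscle (mice M1602, M1610 and M1646). Numbers are those of the array titles, with M for muscle. Mice M1647 and M1646 were 14 months old and the other mice 15 months. The KI mice were homozygous for the I312R allele per the study, which had been backcrossed 4 times to C57BL6 mice (C57BL/6N in the methods of the study), and the WT mice were littermates, so the allele was present in every cell from conception. Which muscle was dissected is not given in the sources used here. Each array carries the RNA of 1 mouse, so the spread between arrays of a genotype is a spread between animals.

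RAP1, encoded by Terf2ip, is a subunit of shelterin, the complex that coats telomeres, where it is held by TRF2. It also acts away from telomeres, in transcription and, in the cytoplasm, in NF-kappaB signalling. In the KI mice an isoleucine that contacts TRF2 is replaced by arginine, so that the protein is made but no longer held at telomeres. The study also reports less RAP1 protein, and a larger cytosolic share of it, in KI embryonic fibroblasts and brain. In a comparison of genotypes these changes cannot be told apart from loss at telomeres. Skeletal muscle is a mosaic of slow, oxidative fibres and fast, glycolytic fibres, each with its own myosin, troponin and calcium pump genes, and its bulk RNA also holds transcripts of fat, vessels, nerve, tendon and resident immune cells.

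The guide RNA and the donor oligonucleotide that made the allele are shown because they are the only designed difference between the genotypes. Both are written 5′ to 3′. Capitals mark the isoleucine codon in the guide and the arginine codon in the donor.
guide: gaactgccattaaggtgATC
donor: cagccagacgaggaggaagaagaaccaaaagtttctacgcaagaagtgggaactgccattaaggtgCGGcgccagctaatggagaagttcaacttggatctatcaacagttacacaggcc
Of the 20 bases of the guide, 17 equal the donor, whose bases 50 to 69 lie under it. The 3 substitutions, counted from 1 at the 5′ end of the guide, are A18C, T19G and C20G. The submitters describe a further, silent change.

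Levels are given as log2 of the processed spot signal minus the 75th percentile of the array, so that a level of 0 is the signal at that percentile and a difference of 1 is a doubling. The 6 muscle arrays shared 1 slide. Their 75th percentile lay between a signal of 312.5 and 593.2, between 50.5% and 55.7% of probes were well above background, and correlations between pairs of arrays across genes lay between 0.956 and 0.992. The skeletal muscle label was borne out by its markers. Ckm, the muscle creatine kinase, had levels of 8.70, 7.96 and 8.88 in KI mice M1600, M1609 and M1647 and 8.63, 8.91 and 9.14 in WT muscle M1602, M1610 and M1646. Acta1, skeletal alpha-actin, lay between 9.50 and 10.35, and Myh4, the fastest of the fast myosins, between 9.47 and 9.99. Neither marker separated the genotypes. The probe of 1 further fast fibre marker, Mylpf, was dim, at -0.92 at most.

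Some arrays stood apart from the others before any comparison of genotypes. KI mouse M1609 carried transcripts of mammary epithelium: Wfdc18, a mammary protein, had a level of 2.30 there and of at most -6.13 on the other arrays, and Csn1s1, a casein, had 0.77 against at most -4.72. Of 30 mammary epithelium genes, 8 were tested in muscle, 7 of them were highest in M1609, and their mean level was 1.16 in that mouse against -1.32 and -1.13 in the other KI mice and -1.17 to -0.91 in WT muscle. Wap and Csn3, which also define that tissue, were not well above background on any muscle array. Skin keratinocyte genes followed the same mouse, with a mean of 1.19 in M1609 and of -0.41 at most elsewhere, and 5 of the 6 tested were highest there.

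KI mouse M1609 and WT mouse M1602 shared transcripts of bone and marrow. Bglap2, an osteocalcin gene of bone-forming cells, had levels of -5.88, 5.06 and -6.38 in KI against 5.51, -4.02 and -0.95 in WT muscle. Camp, a granule peptide of neutrophils, had -2.99, 4.43 and -3.51 in KI against 4.28, -2.75 and -3.21 in WT muscle. S100a9, a calcium-binding protein of neutrophils, had -0.50, 5.62 and -1.81 in KI against 5.85, -1.54 and -1.10 in WT muscle. In all 3 genes these 2 mice of opposite genotype were far above the other 4. The 8 of 15 bone cell genes tested had a mean level of 1.67 in M1609 and 2.22 in M1602, and of -0.49 at most in the other mice, and the 5 of 12 marrow granulocyte genes tested had 3.26 and 3.16, against -1.72 at most. Ibsp, which also defines bone, was at -0.47 in M1609 and -0.15 in M1602 and at -4.59 at most elsewhere. Both of these lists were drawn up after the levels had been seen. Erythroid genes, the globins and red cell membrane genes, had mean levels of 1.98, 4.79 and 2.23 in KI against 3.42, 1.63 and 2.90 in WT muscle, and M1609 was highest in 7 of 7. Bglap2 and Bglap3 are near-identical copies, as are some globin genes, and their probes may share signal. WT mouse M1602 alone was high in Muc20, a membrane mucin, at 5.26 against -1.35 at most.

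Slow fibre genes also spread widely between the muscles, and the genotypes overlapped in all but 1 of the 19 tested. That gene was Pln, described below, which was tested because of the WT arrays. The share of all genes with separate genotypes was 3.54%. Myh7, the slow myosin heavy chain, had levels of 1.75, 9.60 and 5.34 in KI against 7.67, 2.38 and 8.32 in WT muscle. Tnnc1, the slow and cardiac troponin C, had -1.49, 6.56 and 1.11 in KI against 2.91, -1.25 and 4.41 in WT muscle. Myl3, the slow essential light chain, had 1.98, 9.60 and 7.36 in KI against 7.5, 2.34 and 8.88 in WT muscle. KI mouse M1600 and WT mouse M1610 were the lowest, and KI mouse M1609 the highest, in each of these genes. Over the 19 slow fibre genes the mean level was 1.31, 5.73 and 3.27 in KI against 4.01, 1.55 and 4.71 in WT muscle, and in 13 of the 19 mice M1600 and M1610 were the lowest pair. The KI minus WT difference of this mean was 0.01 with all 6 arrays and -1.14 without mouse M1609. Genes of fast fibres varied far less: their mean over 17 genes lay between 7.28 and 7.79 on every array. Myh2, the fast oxidative myosin, was lowest in the same pair, at 8.46 in M1600 and 8.11 in M1610, against 8.99 to 9.11 in the other mice. Sln, sarcolipin, an inhibitor of the calcium pump, spread from -0.09 in M1600 to 7.19 in M1609. Myosin genes are similar in sequence, so the high levels of Myh8, a myosin of newborn muscle (9.73 to 10.43), may include signal of its relatives.

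**Figure D1:**
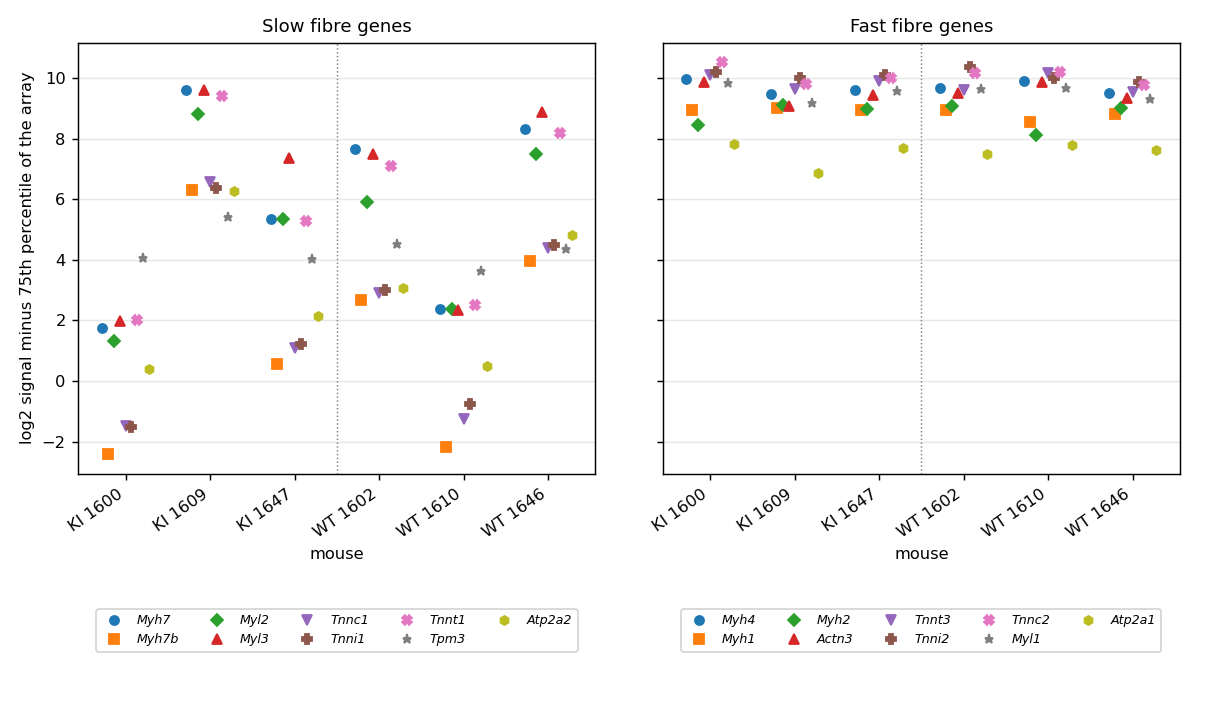
Levels (log2 signal minus the 75th percentile of the array) of 9 slow fibre and 9 fast fibre genes on each of the 6 muscle arrays, 1 point per gene and mouse. Slow fibre genes are low in KI mouse M1600 and WT mouse M1610 and highest in KI mouse M1609, with Myh7 from 1.75 to 9.60, while Myh4 stays between 9.47 and 9.99.

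Across the 13516 genes tested in muscle the median SD over the 6 arrays was 0.27, and 328 genes had an SD above 1. Among the 100 genes of largest SD, 62 were highest in M1609, 54 had M1609 and M1602 as the highest pair, and 1 separated the genotypes. Over all genes, mice M1600 and M1610 were the highest pair in 22.6% of genes and the lowest pair in 13.2%, and M1609 and M1602 were the lowest pair in 14.2%. Mouse M1647 stood at an extreme least often: it was highest in 6.67% of genes and lowest in 7.78%, against 27.3% and 30.3% for M1609. In bulk RNA, more or fewer cells of a kind and more or less RNA per cell cannot be told apart.

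**Figure D2:**
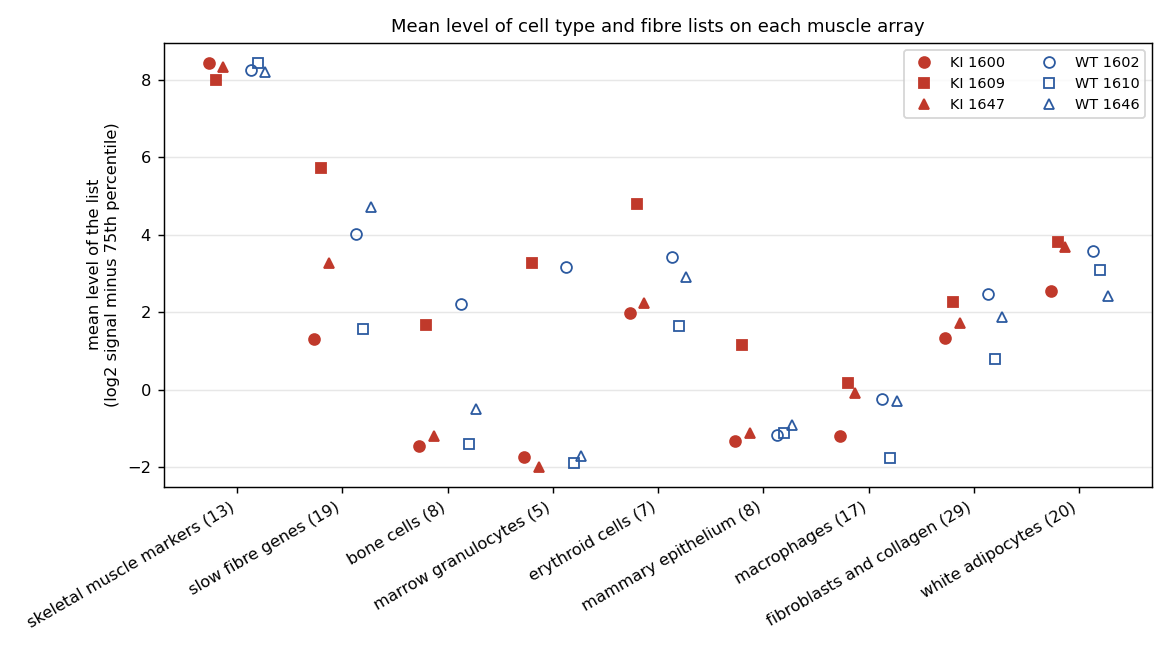
Mean level (log2 signal minus the 75th percentile) of the tested genes of 9 lists on each muscle array, with the number of genes in brackets, KI mice filled and WT mice open. Skeletal muscle markers are level over the 6 mice, slow fibre genes range from 1.31 to 5.73, and bone, marrow and erythroid genes are highest in KI M1609 and WT M1602.

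Terf2ip, the mutated gene, was well above background on every muscle array. Its levels were 1.04, 0.77 and 0.75 in KI against 0.91, 0.99 and 0.87 in WT muscle. The genotypes overlapped, and the difference of -0.07 (SE 0.16) was smaller than its error. A second probe gave 0.06, with levels between -2.0 and -1.55. A point mutation need not alter transcript level, so these values do not check the genotype labels. In the other shelterin genes the genotypes overlapped too. Terf2, which encodes the partner that the mutant RAP1 no longer binds, had 3.1, 2.57 and 2.56 in KI against 2.61, 2.79 and 2.58 in WT muscle. Differences were 0.16 for Terf1 and 0.05 for Acd, both shelterin subunits, 0.04 for Tinf2, the bridge between them, and 0.29 for Pot1a, which binds the single-stranded end. Tert, the catalytic subunit of telomerase, was dim, from -3.93 to -1.98. Of 16 shelterin, telomerase and CST genes tested, 12 had a higher and 4 a lower mean in KI, and in 0 of them did the genotypes separate. Without M1609, 8 were higher and 8 lower, and 1 separated. Over all genes with 6 arrays, 54.8% had a higher mean in KI and 3.54% separated, so 0 of 16 is near that share.

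The comparison of genotypes asked which transcripts differ in muscle between mice homozygous for the I312R allele and WT mice. Of 13516 genes, 0 (0%) passed an adjusted p of 0.05 with limma, and the smallest adjusted p was 0.929. An unadjusted p under 0.05 was reached by 115 genes (0.851%), 55 higher and 60 lower in KI. In 478 genes (3.54%) the genotypes did not overlap, meaning that all 3 KI levels lay on one side of all 3 WT levels: 293 (2.17%) with KI higher and 185 (1.37%) with KI lower. The mean was higher in KI in 7408 genes (54.8%), with a median difference of 0.02. Without mouse M1609, 0 genes passed, 151 (1.12%) had an unadjusted p under 0.05, 1098 (8.12%) did not overlap and 7752 (57.4%) had a higher mean in KI. An unadjusted p under 0.05 was reached both with and without that mouse by 57 genes. In simulated arrays with the same spread per gene, a change of 1 was recovered in 27% of genes and a change of 2 in 71%, with 6 false calls. The simulated noise was independent between genes. The muscle arrays deviate together over many genes, so these rates need not hold for them. With 3 against 3 mice an exact permutation test of a single gene gives a two-sided p of 0.1 at the least, so no gene could pass it. Random order alone puts the groups of a gene fully apart with that same probability. The genes below are those of smallest unadjusted p among non-overlapping genes, and none passed the threshold.

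Cyp26b1 had the smallest p among the higher genes. It encodes a cytochrome P450 that clears retinoic acid, the vitamin A derivative that acts through nuclear receptors. Its levels were 2.91, 3.27 and 2.28 in KI against 1.63, 0.18 and 0.75 in WT muscle, so the lowest KI muscle lay above the highest WT muscle. The means were 2.82 ± 0.50 and 0.85 ± 0.73 (SD, n = 3 each). The difference was 1.96 (SE 0.41; limma unadjusted p = 0.00225, adjusted p = 1.00), and 1.74 without mouse M1609 and 2.13 without mice M1609 and M1602. Tmem40, a membrane protein gene, had levels of -0.67, -0.21 and -0.12 in KI against -1.73, -1.36 and -2.55 in WT muscle. Its groups were also apart, by 1.55 (SE 0.33; limma unadjusted p = 0.00243, adjusted p = 1.00), and by 1.49 without M1609.

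Among the other 8 higher genes, differences ran from 0.59 to 1.30. Asb15, a muscle-expressed adaptor of ubiquitin ligases, differed by 0.75 (SE 0.19), and Arsa, the lysosomal enzyme that degrades sulfatides, by 0.59 (SE 0.18). Arsa levels were 1.62, 1.94 and 1.51 in KI against 1.18, 1.14 and 0.98 in WT muscle, so that the groups were apart. Slfn8, of the interferon-responsive Schlafen family, differed by 0.67 (SE 0.18) and Shc2, an adaptor of receptor tyrosine kinases, by 0.62 (SE 0.17). Zfp607b (0.77) and Ankrd33 (0.78) were dim, detected on 2 and 1 WT arrays, and were tested because of the KI group. The gene 4632404H12Rik (0.59) is little characterised. Gm7609 was well above background in KI mice alone and was tested because of that group. It was higher there by at least 1.44-fold, a bound in which each WT value counts as no less than the dimmest detected probe of that array. Its measured difference was 1.30, and 0.33 with normexp, which is below that bound. The bound therefore holds for the processed signal alone. Cyp26b1 kept 1.82 and Tmem40 1.05 with normexp. Slfn8 and Gm7609 have close relatives, and their probes may share signal.

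Prickle2, a planar cell polarity gene, was detected in WT muscle alone and was tested because of that group. Its levels were -5.02, -5.06 and -5.07 in KI against -3.82, -3.90 and -3.70 in WT muscle. With the KI values raised to the dimmest detected probe of each array, the level was at least 1.41-fold lower, and at least 1.26-fold lower without M1609. The fitted difference of -1.24 (SE 0.15; limma unadjusted p = 6.87e-05, adjusted p = 0.929) rests on KI readings not above background. It was -0.12 with normexp background correction, smaller than that bound, which therefore holds for the processed signal alone. The unnamed transcript AU019990 had -3.30, -3.67 and -3.37 in KI against -1.74, -1.84 and -2.23 in WT muscle. Detected on each of the 6 arrays, it differed by -1.51 (SE 0.20; limma adjusted p = 0.939). With normexp its difference was -0.61.

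A further 7 lower genes were dim, with WT means between -3.72 and -2.93. Zkscan2, a zinc finger gene detected on all arrays, differed by -0.72, and Ccdc30, detected on 2 KI arrays, by -1.20. Rasl11a, a Ras-like GTPase gene, Gm9767, Gm10791 and Gm11823 were well above background on 1 of 3 KI arrays, so their measured differences of -0.67, -1.16, -1.28 and -1.11 rest in part on undetected probes. These genes and Ccdc30 were tested because of the WT group. Ugt1a6a, a glucuronosyltransferase, was well above background in WT muscle alone and was tested because of that group. With KI values raised to the dimmest detected probe of each array, it was at least 1.5-fold lower in KI. That bound holds for the processed signal alone, since the normexp difference was smaller. Its locus shares exons with other Ugt1a transcripts, which a probe may not tell apart. Over the 20 genes of both directions the adjusted limma p ranged from 0.929 to 1.00. Background correction set the size of the dim ones: with normexp these 7 genes differed by -0.35 to -0.14, and Gm9767 by -0.18.

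**Figure D3:**
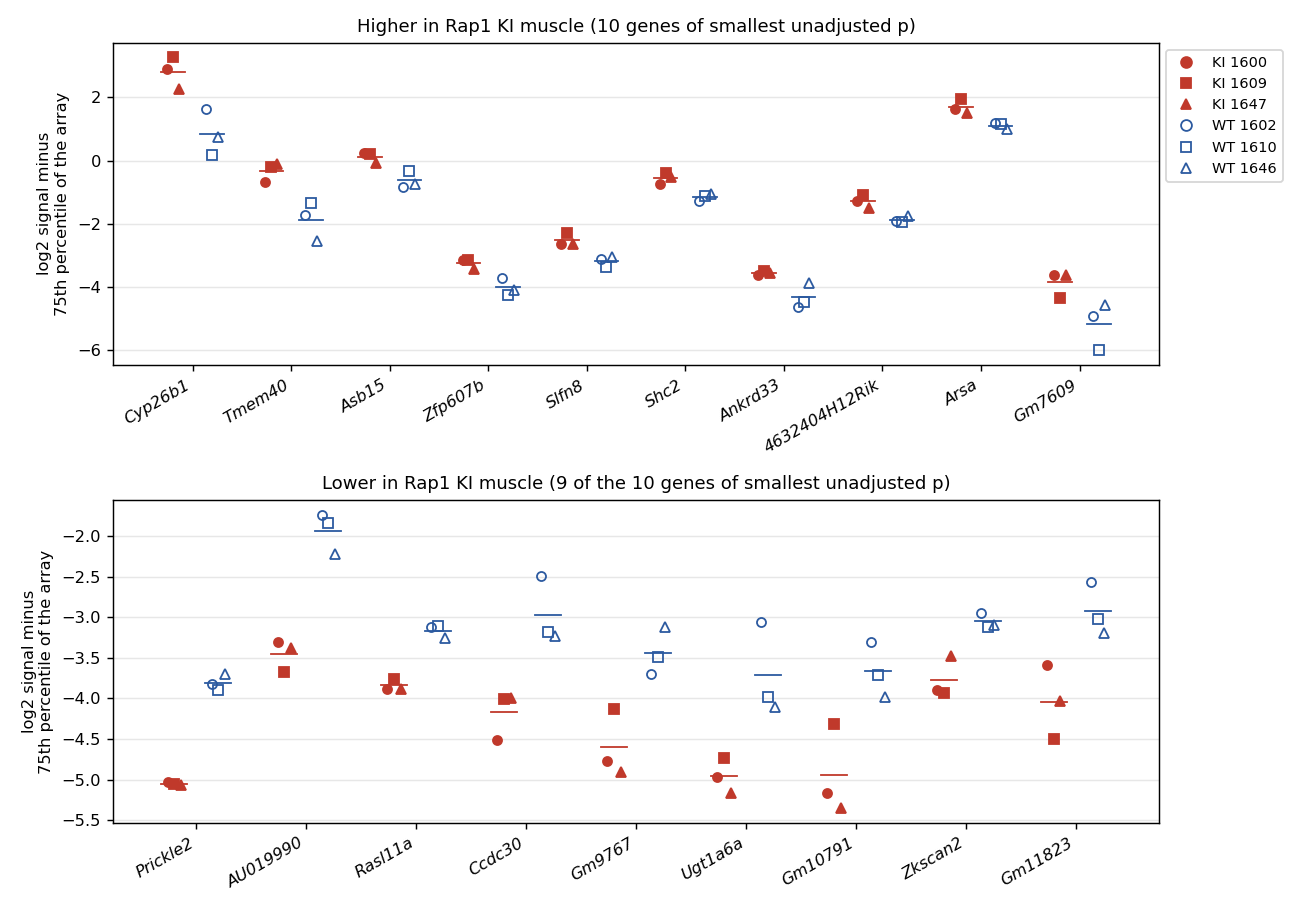
Levels (log2 signal minus the 75th percentile) of the 10 higher genes and 9 of the 10 lower genes of smallest unadjusted p with non-overlapping genotypes, 1 point per mouse, with bars at the means. Cyp26b1 lies between 2.28 and 3.27 in KI and between 0.18 and 1.63 in WT muscle, and Prickle2 near -5 in KI and near -4 in WT muscle.

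Leaving out mouse M1609 brought other genes into the lists. Fmod, fibromodulin, a collagen-binding proteoglycan of tendon, had levels of 2.64 and 2.77 in KI mice M1600 and M1647, 1.46 in M1609, and 1.85, 1.88 and 1.77 in WT muscle. The difference was 0.46 (SE 0.35) with and 0.87 (SE 0.16; limma unadjusted p = 0.00147, adjusted p = 1.00) without M1609, where the bone and mammary transcripts also lie. Usp1, a deubiquitinase of DNA repair, had 1.73 and 2.27 in that KI pair, 0.62 in M1609 and 0.84 to 1.16 in WT muscle. Meiob, a gene of meiotic recombination, and Abca8a, a lipid transporter gene, differed by 0.71 and 0.77 without M1609. Muc5ac, a secreted mucin, and Inava, a regulator of innate signalling, were detected in KI on M1609 alone and were tested because of the WT group. Without M1609 they were at least 1.43-fold and 1.12-fold lower in KI than in WT, bounds that hold for the processed signal alone. The measured differences of -0.94 and -1.91 rest on undetected probes. With M1609 included the groups overlapped in 6 of 6, among them Meiob, with a difference of 0.52.

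Gene lists were described by the mean level of their tested members on each array and by how many members lay higher or lower. Over all genes, 54.8% had a higher mean in KI and 3.54% had separate genotypes. Of 1032 gene names in 48 lists, 845 were tested, and in 0 of the lists did any member pass the threshold. The signs of many list differences turned on mouse M1609. Mitosis genes were higher in 17 of 17 with all arrays and in 7 of 17 without M1609, erythroid genes in 7 of 7 and 0 of 7, and cytokines and chemokines in 15 of 18 and 6 of 18. Macrophage genes were higher in 17 of 17 and 13 of 17, with mean differences of 0.40 and 0.12.

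**Figure D4:**
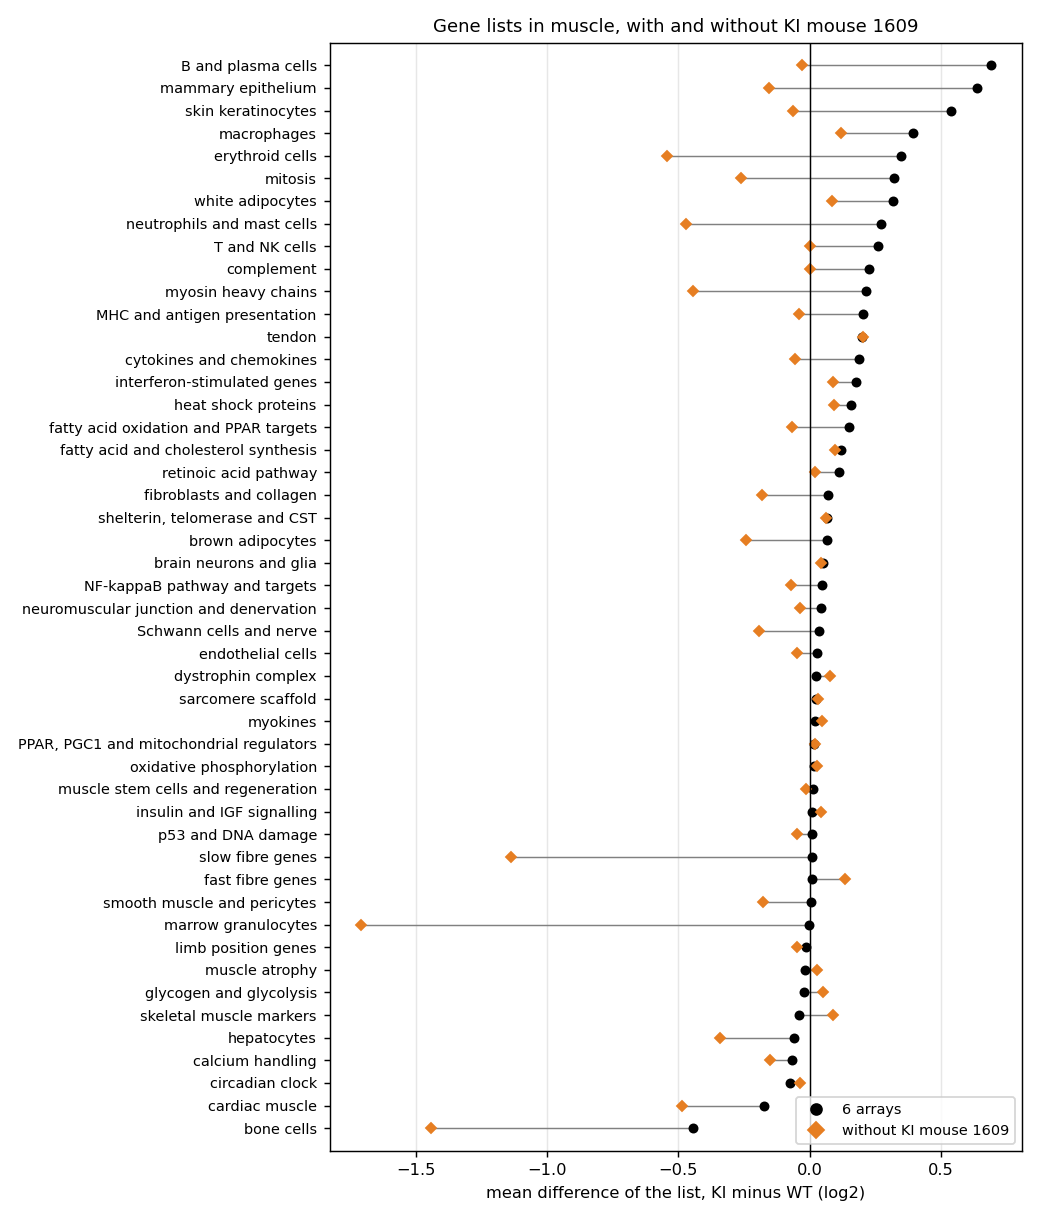
Mean difference between KI and WT muscle (log2, KI minus WT) for each of 48 gene lists, with all 6 arrays (circles) and without KI mouse M1609 (diamonds). Leaving out the mouse moves the slow fibre difference from 0.01 to -1.14 and the mitosis difference from 0.32 to -0.26, while oxidative phosphorylation stays at 0.02 and 0.03.

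Oxidative phosphorylation and glycolysis genes were close between genotypes, while fatty acid oxidation genes varied widely between mice. The 78 oxidative phosphorylation genes, which encode the respiratory chain and ATP synthase, had mean levels of 7.25, 7.25 and 7.31 in KI against 7.24, 7.20 and 7.33 in WT muscle. Their mean difference was 0.02, with 49 higher and 29 lower, and Atp5h (0.17) and Atp5j2 (0.08, and 0.03 without M1610), both of ATP synthase, were the 2 genes with separate genotypes. The 28 glycogen and glycolysis genes differed by -0.02. The 36 genes of fatty acid oxidation and PPAR targets had means of 3.15, 4.23 and 4.01 in KI against 3.59, 3.29 and 4.06 in WT muscle, lowest in M1600 and M1610 like the slow fibre genes. In 23 of the 36 these mice were the lowest pair. With all arrays 29 were higher and 7 lower in KI (mean difference 0.15), without M1609 14 and 22 (-0.07). Pdk4, which holds back glucose oxidation, had 4.06, 6.86 and 5.79 in KI against 5.75, 4.22 and 6.97 in WT muscle, and Fabp3, the muscle fatty acid binding protein, 6.09, 8.11 and 7.99 against 6.72, 6.48 and 8.05. In neither gene did the genotypes separate. Of 25 PPAR, PGC1 and mitochondrial regulator genes, 1 separated, Mfn1, of mitochondrial fusion (0.14, and 0.09 without M1602), and Ppargc1a, the main coactivator of mitochondrial genes, differed by 0.01. Of the 29 fatty acid and cholesterol synthesis genes, Mlxipl, a glucose-sensing factor, differed by 0.30 and Fdft1, squalene synthase, by -0.25 (-0.14 without M1609), both with separate genotypes. The counts of higher and lower members in this list were 18 and 11. Over all genes 3.54% had separate genotypes.

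Immune genes differed widely between the mice of 1 genotype. Interferon-stimulated genes were higher in KI in 25 of 33 with all arrays (mean difference 0.18) and in 26 of 33 without M1609 (0.09). Stat2, a transcription factor of the interferon response, had 0.49, 0.72 and 0.29 in KI against 0.29, 0.05 and 0.15 in WT muscle, and Oas2, an antiviral enzyme, differed by 0.42, and by 0.23 without M1609. These 2 of 33 separated the genotypes, against 3.54% of all genes. The lowest KI value of Stat2 was at the highest WT value to 2 decimals. Isg15 was highest in M1609, at 2.92 against 1.76 at most in WT muscle, and differed by 0.53 with and 0.01 without that mouse. Of 18 MHC and antigen presentation genes, 13 were higher with and 9 without M1609. Nlrc5, an activator of MHC class I genes, had -0.87, -0.49 and -0.94 in KI against -1.01, -1.42 and -2.06 in WT muscle, a difference of 0.73 (SE 0.29; limma unadjusted p = 0.0418, adjusted p = 1.00), and 0.45 without M1646. H2-Q4, an MHC class I gene, had 7.70, 7.71 and 7.69 in KI against 8.10, 8.14 and 7.77 in WT muscle, a difference of -0.30, though H2 genes are alike in sequence. NF-kappaB pathway and target genes numbered 10 higher and 10 lower. Macrophage genes were lowest in M1600 and M1610 in 16 of 17, and complement genes in 14 of 16. The part of immune cell content in these differences was not tested.

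Retinoic acid pathway genes were described beside Cyp26b1. Of the 22 tested, 13 were higher and 9 lower in KI, and 12 and 10 without M1609. With 6 arrays Cyp26b1, already named for its small p, alone separated the genotypes. Both counts are near the shares of all genes, of which 54.8% had a higher mean in KI and 3.54% separated. Aldh1a1, which makes retinoic acid, had 5.85, 5.95 and 5.98 in KI against 5.07, 5.90 and 5.36 in WT muscle, a difference of 0.48 (SE 0.23) with 1 WT mouse inside the KI range. Rarb, a receptor gene induced by retinoic acid, differed by 0.26 (SE 0.20), Rara, another receptor, by 0.12, Dhrs3, which turns retinal back to retinol, by 0.25, and Crabp2, which carries retinoic acid to the nucleus, by -0.17.

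Muscle structure and turnover lists had small mean differences. The 32 sarcomere scaffold genes differed by 0.02, the 25 dystrophin complex genes by 0.02, the 23 neuromuscular junction genes by 0.04 and the 29 atrophy genes by -0.02. Trim63, a ubiquitin ligase of atrophy, differed by 0.04. Fbxo32, also of the atrophy list, differed by 0.39, and KI mouse M1600 was highest at 5.45 against 4.33 to 4.65 in the other mice. Single members with separate genotypes were Flnc, an actin crosslinker of the Z disc (0.38, and 0.16 without M1609), Lama2, the laminin of the muscle basement membrane (0.44, and 0.22 without M1602), Ankrd1, a stretch-responsive gene (0.68, and 0.20 without M1602), and Cacnb1, a calcium channel subunit (-0.18). Fst, follistatin, which blocks myostatin, had 1.31, 2.20 and 1.22 in KI against 1.21, 0.29 and 0.85 in WT muscle, a difference of 0.79 (SE 0.34), and 0.48 without M1609. Mstn, myostatin, was low in mouse M1609, at 1.36 against 3.06 to 4.05 elsewhere, and differed by -0.44 with and 0.30 without it. Pln, phospholamban, an inhibitor of the slow calcium pump, was dim, with -3.94, -3.58 and -3.51 in KI against -2.42, -3.43 and -1.85 in WT muscle and a difference of -1.11 (SE 0.39; limma unadjusted p = 0.0266, adjusted p = 1.00), with 2 KI arrays well above background.

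Connective tissue and fat genes held further separate members. Egr1, an immediate early transcription factor also active in tendon, had 1.51, 1.15 and 0.22 in KI against 1.64, 3.95 and 2.46 in WT muscle, a difference of -1.73 (SE 0.61; limma unadjusted p = 0.0267, adjusted p = 1.00). The highest KI and lowest WT values were close, and the difference was -1.09 without M1610. Of the 12 tendon genes, 9 were higher and 3 lower with all arrays. Without M1609, Fmod, Thbs4 (0.38), a matrix thrombospondin, and Tnmd (0.54), tenomodulin, lay above all WT mice and Egr1 below. Over all genes the genotypes were apart in 8.12% without that mouse. Of the 20 white adipocyte genes, Aqp7, the glycerol channel of fat cells, separated the genotypes, by 0.41. Adipoq, adiponectin, had 2.89, 3.78 and 4.65 in KI against 3.98, 3.53 and 2.48 in WT muscle. The mean of the list ranged from 2.41 to 3.81 and overlapped between genotypes. Of its 20 genes, 16 were higher and 4 lower in KI (mean difference 0.32), and 13 and 7 without M1609 (0.08). Over all genes the mean was higher in KI in 54.8%, and in 57.4% without M1609. Rgcc, a cell cycle regulator of endothelium, differed by 0.47, and by 0.22 without M1602. Igfbp5, which binds insulin-like growth factors, differed by -0.45, and by -0.23 without M1609. Sesn2, a stress-induced gene, differed by 0.22 and Cry2, of the circadian clock, by 0.18, or 0.09 without M1600, and in all 4 genes the genotypes were apart. Lists of up to 78 genes were searched for such members, and over all genes the genotypes were apart in 3.54%.

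The same contrast was also described in the other 3 tissues of these mice. The genotype effect in muscle minus the mean effect in liver, brain and heart had an unadjusted p under 0.05 in 178 genes (1.32%), and 0 passed the threshold. Cyp26b1 was also higher in KI liver, at 2.23, 2.78 and 3.36 against 1.35, 1.16 and 1.01 in WT, and in KI heart, at 2.53, 1.85 and 2.23 against 1.02, 0.83 and 0.65. In brain it had 2.02, 1.48 and 1.20 in KI against 2.20, 1.49 and 1.22 in WT. The genotypes were apart in muscle, heart and liver and overlapped in brain. Its muscle effect exceeded the mean of the other tissues by 0.99 (SE 0.41; limma unadjusted p = 0.0258, adjusted p = 1.00). That mean includes brain, with an effect of -0.07. The effects were 1.61 in liver and 1.37 in heart, closer to the 1.96 in muscle. Tmem40 was different: its effect was 0.40 in heart, 0.06 in brain and 0.03 in liver, where 1 KI value was missing, and the groups overlapped in each. The muscle effect exceeded their mean by 1.38 (SE 0.57; limma unadjusted p = 0.0255, adjusted p = 1.00). Among the other higher genes, Slfn8 was also apart in liver, by 0.63 against 0.67 in muscle, and Gm7609 by 0.26. In heart and brain the genotypes overlapped in both genes. The tissues share the 6 mice. All liver and brain arrays and 4 heart arrays lay on other slides than muscle.

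**Figure D5:**
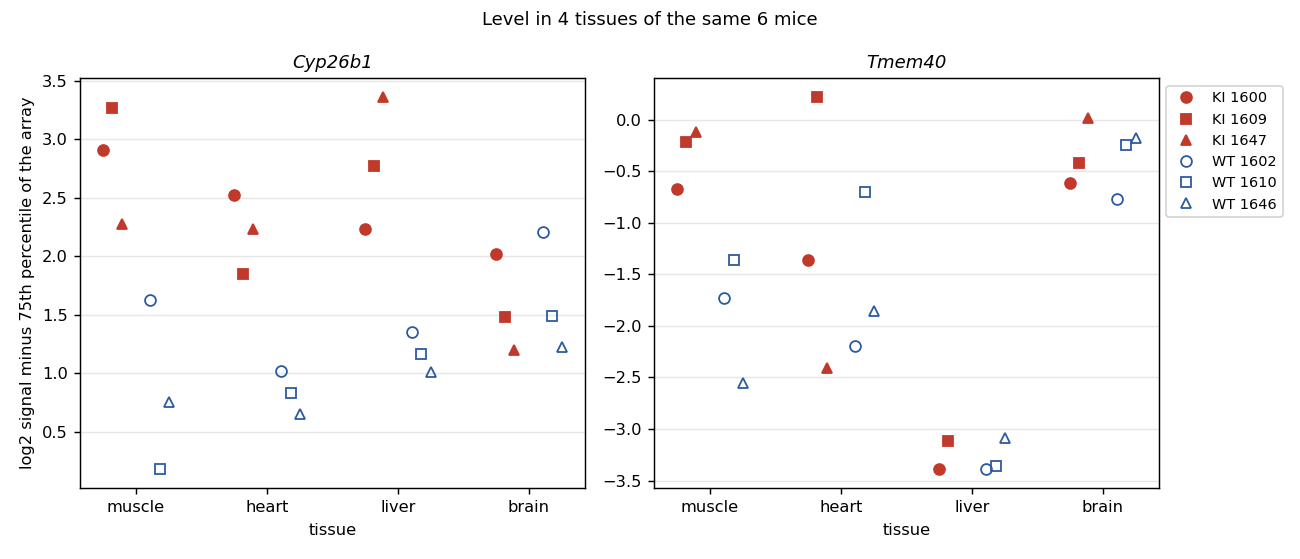
Levels (log2 signal minus the 75th percentile) of Cyp26b1 and Tmem40 in muscle, heart, liver and brain of the same 3 KI (filled) and 3 WT (open) mice. Cyp26b1 is apart between genotypes in muscle, heart and liver, and Tmem40 in muscle, where KI lies between -0.67 and -0.12 and WT between -2.55 and -1.36. 1 KI liver value of Tmem40 is missing.

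Genes near the edited locus can travel with it through backcrosses. The 50 tested genes on each side of Terf2ip were described for this reason. Of these 100 genes, 58 were higher and 42 lower in KI, with a median difference of 0.04. The genotypes were apart in 9 of them, 9% against 3.54% of all genes, and in 13% without M1609, against 8.12%. The share was not tested. Mlkl, the effector of necroptosis, had -2.11, -1.85 and -2.39 in KI against -2.56, -2.97 and -2.48 in WT muscle, a difference of 0.55 (SE 0.22), and Clec18a, a lectin gene, differed by 0.50 (SE 0.20). These 2 had an unadjusted p under 0.05. Also apart were Mon1b (0.33), Znrf1 (0.25), Ap1g1 (0.20) and Il34 (0.20), higher in KI, and Hsbp1 (-0.28) and Ctrb1 (-0.21), lower. Il34 encodes a macrophage growth factor and Ap1g1 a subunit of a vesicle adaptor. They are named because their genotypes did not overlap.

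The promoter of Cyp26b1 is shown as that of the gene with the largest difference among the higher genes, from RefSeq on GRCm38.p6 at chr6:84593761-84594060, minus strand, 250 bases before the start and 50 after. Capitals mark TATAAA, which starts 139 bases before the annotated start.
Cyp26b1: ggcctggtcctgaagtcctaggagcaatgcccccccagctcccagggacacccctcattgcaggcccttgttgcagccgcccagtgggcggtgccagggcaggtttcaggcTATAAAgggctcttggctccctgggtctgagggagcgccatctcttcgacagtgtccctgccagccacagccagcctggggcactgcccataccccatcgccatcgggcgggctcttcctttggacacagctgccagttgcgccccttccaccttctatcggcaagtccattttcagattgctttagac
RefSeq windows were found for 18 of the 20 genes of smallest p. TTAGGG, the telomere repeat, or CCCTAA on the other strand, was in a window of 4 of the 18 (Prickle2, Zfp607b, Gm9767 and Gm10791). The share of all 27025 genes with it in at least 1 window was 12.03%, and of all 32851 windows 10.6%. TATAAA or TTTATA was in 4 (Cyp26b1, Asb15, Ccdc30 and Gm11823), against 15.7% of all genes and 13.6% of all windows. A match gives letters in a window and no binding was measured.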

How the data were processed

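Total RNA (200 ng, per the labels) of each sample was put, as Cy3-labelled cRNA, on an array of its own. The authors deposited, per array, the spot intensity as Feature Extraction gave it: the processed signal, background-corrected and not normalized between arrays, and the median spot and local background signal. They also deposited a score table, which set against the arrays held z-scores of the log signal within an array, used as an alternative only. The depth of an array is its signal over background, and 3 arrays per genotype limit the precision.

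Control and outlier spots (137 to 213 per muscle array) were left out, no spot was saturated, spots of a probe were averaged, and the log2 processed signal was centred on the 75th percentile of its array. Of 55681 probes, 50.9% had a gene symbol, through RefSeq accessions in a GRCm38.p6 table, and the probe with the highest mean over 24 arrays stood for each of 21368 genes. Genes well above background on all 3 arrays of a genotype were tested with limma 3.58.1 in R 4.3.3 (lmFit, eBayes, two-sided, Benjamini-Hochberg over 13516 genes, threshold 0.05), and muscle against the other tissues over 24 arrays. The script was tested on simulated data.

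Named were the 10 higher and 10 lower non-overlapping genes of smallest p well above background where higher, the 6 and 6 without mouse M1609, the 10 of largest SD, Terf2ip, Cyp26b1, Tmem40 and the muscle markers, up to 5 non-overlapping members per list and up to 6 that define it. Aqp7, Flnc and the neighbours of Terf2ip were named by the same non-overlap. The values of 3 genes that this rule takes are not reported here. The members and lists were chosen with earlier results of these data known. Alternatives covered normalization, background, scores, filters, probes, age, weights, prior, arrays in the fit and left-out arrays.

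Mouse numbers pair arrays across tissues. Deviations from group means on a muscle array had a mean correlation of 0.027 with the other tissues of its mouse. By mouse this value ran from -0.093 (M1646) to 0.128 (M1600). With other mice of the genotype it was -0.013, but deviations cancel within a group, so this value largely follows from the first. The block correlation was -0.0023. Between genotypes no mouse is shared.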

Additional observations from a re-analysis of the deposited data

Results flagged for a closer look

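Mss51, which encodes a mitochondrial protein of muscle, was the only gene whose muscle effect differed from the mean of the other tissues past the threshold in any setting run, and this was without WT mouse M1610. The effects then differed by 2.06 (SE 0.31; limma adjusted p = 0.0471). Its muscle levels were 5.28, 4.8 and 4.5 in KI against 3.34, 5.51 and 2.74 in WT muscle, so the WT mouse left out was the highest of all 6. With all arrays the muscle difference was 1.00 and the groups overlapped.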

How the results depend on the processing

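In muscle, 0 genes passed the threshold under each alternative but 1. Leaving out each array gave 0 to 4: with the filter on dim probes applied anew to the 5 arrays left, chosen after seeing the data, 4 genes passed without KI mouse M1600. These were Ttc36, Aste1, Zic4 and Vmn2r5, higher in the other 2 KI mice and named after their values were seen. Ttc36, Aste1 and Vmn2r5 were well above background on 0 WT arrays and Zic4 on 1, so they were tested through those 2 KI arrays alone, and in M1600 itself Ttc36, Aste1 and Vmn2r5 had -6.16, -6.15 and -6.37, against -6.58 to -6.17 in WT mice. Zic4 had -4.10, 1.29 and 1.11 in KI and -3.38 to -4.19 in WT mice. For the effect against the other tissues, leaving out each array gave 0 to 1 gene.

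The 115 genes at an unadjusted p under 0.05 became 68 with normexp background correction, 350 with no filter on dim probes, 420 over all array features, 381 with array weights, 67 with an intensity trend and robust prior, and 263 with all 24 arrays and no block. Leaving out each array gave 106 to 374, with 374 without KI M1600 and 216 without KI M1647, and 125 to 415 with the filter applied anew, where leaving out KI M1647 gave 240 and WT M1602 190. Chosen after seeing the data, the slow fibre mean as a covariate gave 348 and leaving out mice M1609 and M1602 together 186. The 178 genes against the other tissues became 102 with normexp and 385 with no filter, and 207 to 627 without each array (627 without KI M1600, 490 without KI M1647, 288 without WT M1602). The cause was not tested.

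With the mouse as a replicate block over 24 arrays, the muscle count at an unadjusted p under 0.05 was 264 (263 without the block) and that against the other tissues 176, and the block changed no call, with 0 genes past the threshold.

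Of 848 values of named genes under alternatives, 838 kept their sign, though normexp made dim genes much smaller (Prickle2 from -1.24 to -0.12). The exceptions are Inava, 0.10 (0.099) with normexp, Acta1, -0.012 with quantile normalization, -0.013 with normexp and -0.21 to 0.21 without each array, and Myh4, 0.0062 with array weights, -0.15 to 0.11 without each array and 0.11 without mice M1609 and M1602. Of 48 lists, 14 changed sign under another scaling or probe choice, all described here by values only.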
